A study of Mus musculus with 22 samples.

Results

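DNA methylation was compared between 2 whole E10.5 embryos and 2 E14.5 fetal livers, all homozygous for MommeD28, to describe which loss of methylation takes place in the liver of animals without functional Rlf. The 4 libraries were whole-genome bisulphite sequencing libraries, out of 22 samples in the series, and were chosen by their labels. Methylation was taken as the share of unconverted cytosines at CpGs in non-overlapping 1 kb tiles of chromosomes 1 to 19 (mm9). A tile was used where at least 8 CpGs had 6 or more reads in each of the 4 libraries, which left 641694 tiles. The embryos gave 23.5 and 23.7 reads per CpG in these tiles and the livers 40.9 and 42.5.

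MommeD28 is a chemically induced null allele of Rlf on the FVB background, and Rlf is a zinc finger protein. The colony is homozygous for a multi-copy GFP transgene, which the promoter of human alpha-globin drives with its HS-40 enhancer, so mutants and wild types carry it alike. The embryos and livers came from timed matings of heterozygotes, and the E14.5 mutant and wild-type livers were from littermates. Both embryos were labelled male, liver replicate 1 male and liver replicate 2 female. The matched wild-type libraries (2 E10.5 embryos and 2 E14.5 livers, with the same labelled sexes) and 2 mutant E18.5 livers, both female, were used for comparison. Tissue and stage differ together in this contrast and cannot be told apart. By the paper's account the embryos were also sequenced after the E14.5 livers, so the round of sequencing goes with tissue too. In bulk tissue a change of methylation within cells and a change in the mix of cells cannot be told apart either.

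Methylation of cytosine in CpGs is copied at each cell division, and most of the mammalian genome outside CpG islands carries it. Active promoters are usually unmethylated, and active enhancers usually carry less methylation than the DNA around them. The fetal liver at mid-gestation is the main site of blood formation, where red cell precursors outnumber hepatoblasts, macrophages and sinusoidal endothelium. A whole embryo at E10.5 holds neural tube, somites, heart and mesenchyme together with a circulating first wave of red cells.

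The sequences that carry the main results are shown first, as 200-base windows that hold the most tested CpGs of their tile, from the C57BL/6J reference (mm9, plus strand). Capitals mark CpGs. The first 4 windows each lie in the tile with the deepest loss of methylation at its gene, for genes of blood or liver, the fifth in the tile with the largest gain, and the last 2 in tiles that lost methylation in wild-type liver and less or none in mutant liver.
Zfpm1 intron (chr8:124833294-124833493): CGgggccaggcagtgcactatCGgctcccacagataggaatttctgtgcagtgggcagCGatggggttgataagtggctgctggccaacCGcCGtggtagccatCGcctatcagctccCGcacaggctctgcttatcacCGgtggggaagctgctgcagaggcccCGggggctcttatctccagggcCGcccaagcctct
Kit intron (chr5:75975606-75975805): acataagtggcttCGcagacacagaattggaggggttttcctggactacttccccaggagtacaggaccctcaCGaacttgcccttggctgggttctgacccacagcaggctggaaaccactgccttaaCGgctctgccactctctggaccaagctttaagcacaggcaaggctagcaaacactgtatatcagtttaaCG
Runx1, beside the transcript start (chr16:92825487-92825686): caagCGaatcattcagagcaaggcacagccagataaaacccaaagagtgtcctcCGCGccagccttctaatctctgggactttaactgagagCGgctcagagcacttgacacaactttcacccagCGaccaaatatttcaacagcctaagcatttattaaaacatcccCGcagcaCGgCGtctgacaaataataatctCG
between genes, nearest Apoe (chr7:20280588-20280787): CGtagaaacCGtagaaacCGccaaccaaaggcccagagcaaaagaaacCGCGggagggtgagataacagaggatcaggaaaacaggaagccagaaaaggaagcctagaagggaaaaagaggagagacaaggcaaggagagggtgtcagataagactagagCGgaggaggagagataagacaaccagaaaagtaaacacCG
Cyp26c1, beside the transcript start (chr19:37759316-37759515): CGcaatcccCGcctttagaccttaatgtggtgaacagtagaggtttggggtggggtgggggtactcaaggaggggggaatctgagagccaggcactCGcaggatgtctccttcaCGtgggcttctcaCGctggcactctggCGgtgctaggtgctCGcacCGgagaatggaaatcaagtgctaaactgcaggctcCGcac
Cdh15 exon (chr8:125388537-125388736): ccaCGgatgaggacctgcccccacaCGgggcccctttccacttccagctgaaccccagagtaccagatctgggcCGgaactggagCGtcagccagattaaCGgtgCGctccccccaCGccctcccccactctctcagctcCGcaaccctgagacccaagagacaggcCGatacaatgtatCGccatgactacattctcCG
chromosome 13, between genes (chr13:98233748-98233947): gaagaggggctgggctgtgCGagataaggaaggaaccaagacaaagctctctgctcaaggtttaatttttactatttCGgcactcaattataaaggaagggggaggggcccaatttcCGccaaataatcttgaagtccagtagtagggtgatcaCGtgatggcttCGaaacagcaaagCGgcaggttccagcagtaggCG

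The Zfpm1 window (10 tested CpGs; Zfpm1 is the cofactor of GATA1 in red cells) was 77.7% and 88.3% methylated in the mutant embryos and 2.3% and 4.5% in the mutant livers. The Kit window (4 tested CpGs; Kit is the stem cell factor receptor) went from 76.8% and 79.7% to 9.3% and 9.4%. In the Runx1 window (8 tested CpGs; Runx1 is a transcription factor needed for definitive blood stem cells) the embryos stood at 89.5% and 90.05% and the livers at 11.8% and 7.7%. The window nearest Apoe, which encodes apolipoprotein E, fell from 64.3% and 57.1% to 1.2% and 0.77%. The Cyp26c1 window, beside the start of a retinoic acid-degrading enzyme, rose from 3.6% and 2.8% to 73.5% and 75.2%. These 5 windows were chosen for the size of their change, so the gap between embryos and livers is a description.

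Methylation was lower in mutant liver than in mutant embryo at most of the tested tiles, which hold only part of the genome. The mean over tiles was 78.9% and 79.2% in the 2 embryos and 64.6% and 63.9% in the 2 livers, or 79.1% ± 0.24 and 64.2% ± 0.54 (SD, n = 2 each). The groups did not overlap, with a difference of -14.8 points, but 2 libraries against 2 can give no p below 0.33 in a two-sided exact permutation test, which was the value here. The median tile fell by 15.5 points, and the quartiles of the change were -20.9 and -9.2 points. Of 16048 windows of 100 kb with at least 10 tiles, 16027 (99.9%) had a lower mean in liver.

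Of all tiles, 334779 were lower in mutant liver (52.2% of those tested) and 6934 were higher (1.08%), where edgeR's quasi-likelihood test gave an adjusted p below 0.05 and the group means lay over 15 points apart. Both livers lay below both embryos in 88.5% of tiles and above both in 5.22%. Since the typical tile fell by about as much as the limit of the call, the count also depends on the reference: measured from the median change, 26606 tiles (4.15%) were further down by over 15 points and 49856 (7.77%) were above it. A tile that did not change at all lies over 15 points above the median change. The second count can thus include tiles that were unmethylated in both tissues. To describe loss beyond the general level, falls of over 40 points were counted separately, a limit chosen after the values were seen. There were 9491 such tiles (1.48%), and the 2 livers were below 20% in 1367 of them on average.

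**Figure D1:**
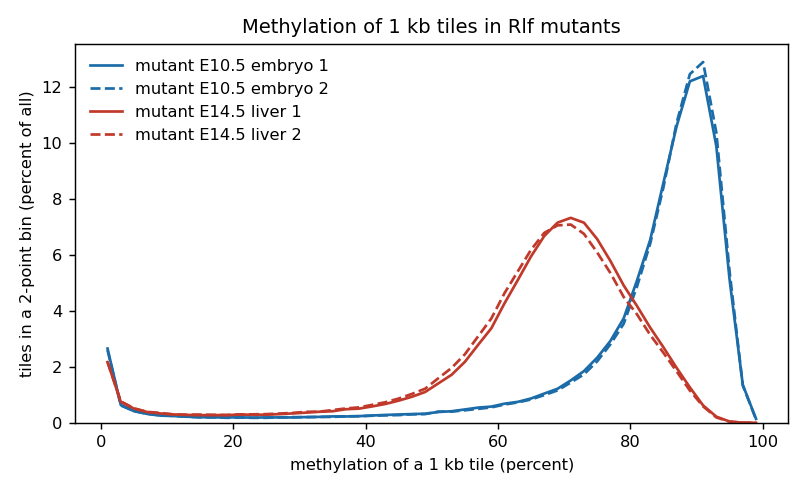
Distribution of methylation (percent, horizontal) over 641694 tiles of 1 kb in the 4 mutant libraries, as the percent of tiles in each 2-point bin. The 2 embryos have medians of 86.3% and 86.7% and the 2 livers of 68.9% and 68.0%, while the small peak of unmethylated tiles stays in place.

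The change differed between tiles by their starting level, which sets how far a tile can fall. Tiles under 10% in the embryos, which cannot fall by 15 points, had a median change of 0.31 points, and 729 of 27215 were higher. Tiles between 80% and 90% fell most, with a median of -17.98 points and 66.6% called lower. Tiles with 8 or 9 CpGs fell by a median of 17.9 points, those with 25 to 49 CpGs by 5.1 points, and those with 50 or more changed by 0.052 points. Their mean levels in the embryos were 83.1%, 49.8% and 3.7%. Tiles with 10 to 14 and 15 to 24 CpGs, at 82.3% and 79.2% in the embryos, had median changes of -16.1 and -13.4 points. Starting level was not held fixed, so a part of CpG content apart from it was not tested. Between genes the median change was -17.3 points, in introns -14.7, in exons -11.4, and within 1 kb of a protein-coding transcript start, where the embryo mean was 35.6%, -1.03. The medians of the 19 chromosomes ran only from -16.1 points on chromosome 9 to -14.4 on chromosome 11.

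The runs with the most tiles called lower were wide and shallow. The 6 with the most tiles held 32 to 40 called tiles each over 36000 to 49000 bp; they covered Zcchc14, Dlgap4, Rbfox3, Sulf2 and Rnf165, and 1 lay more than 5 kb from any protein-coding gene. Over the 40 tiles at Zcchc14 the embryos were at 87.9% and 88.0% and the livers at 65.6% and 63.8%. Rbfox3, which encodes a neuronal splicing factor, went from 77.1% and 77.5% to 55.3% and 52.9% over 33 tiles. These falls were between 21.2 and 23.6 points on average over their called tiles. The median change was -20.6 points over all tiles called lower and -15.5 points over all tiles.

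Over all tiles called lower, 106721 of 176708 regions were a single tile. Falls over 40 points, which far fewer tiles reach, formed 8552 regions, of which 7753 were a single tile and the longest 7000 bp. Of the tiles in them, 48.7% were in introns, 42.02% between genes, 3.7% in exons and 5.6% within 1 kb of a transcript start, against 44.0%, 44.2%, 5.8% and 6.1% of all tiles. Averaged over these tiles, methylation in the livers dropped to 31.5% and 31.0% beside the centre and was back at 56.4% and 55.9% 900 bp away, where the embryos were at 77.1% and 77.7%.

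**Figure D2:**
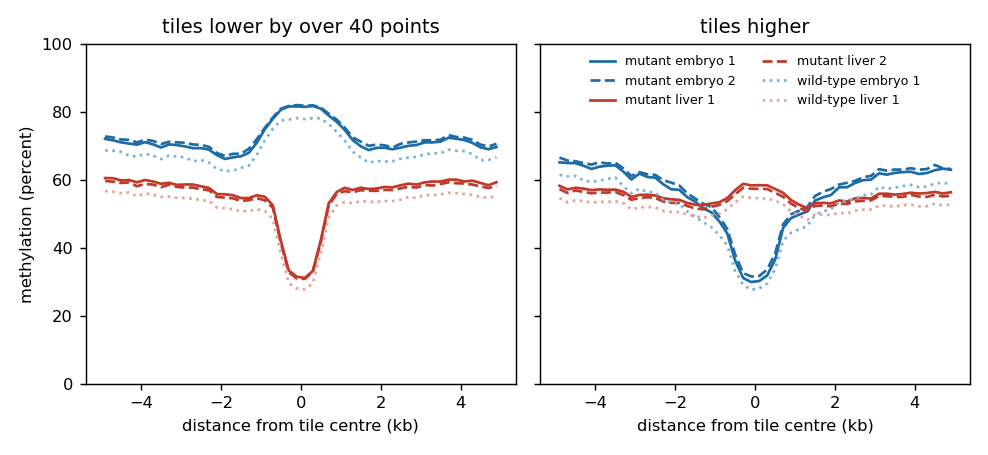
Methylation (percent, vertical) in 200-bp steps against the distance in kb from the centre of tiles that fell by over 40 points (left, 9491 tiles) or were called higher (right, 6934 tiles), in the 4 mutant libraries and replicate 1 of the wild-type groups. Beside the centre the livers are at 31.5% and 31.0% on the left, and the embryos at 29.95% and 31.6% on the right.

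The deep region with the most tiles, with 6 tiles over 6000 bp, covered the start of Cbfa2t3, which encodes a corepressor of blood progenitors: the embryos were at 75.3% and 78.3% and the livers at 22.3% and 22.2%. A 5-tile region in an intron of Kit fell from 81.2% and 83.8% to 25.8% and 26.7%. A 4-tile region at Erg, a transcription factor of blood stem cells and endothelium, fell from 86.9% and 87.8% to 24.5% and 24.4%. At Gfi1b, a repressor needed for red cells and platelets, 1 region of 4 tiles overlapped the gene (75.4% and 72.7% to 20.2% and 19.2%) and another lay beside it (71.04% and 73.6% to 16.7% and 19.6%). Lcp1, the leukocyte plastin, fell from 82.9% and 87.3% to 25.2% and 22.4%. Further regions with 4 or 5 tiles lay at or nearest to Ptpre, Taok3, Bzrap1, Ormdl3, Zyx, Zbtb16, 6030408B16Rik, Pank1, Cd81, Zfp36l2, Acvrl1, Rbm38, Laptm5 and Ermap. These regions were chosen by their fall, so its size is a description.

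Some short sequence motifs of blood transcription factors were found in a larger share of tiles with deep falls than of all tiles, counted on both strands of the reference and with no test. AGATAA, bound by GATA factors, was in 60.9% of tiles that fell by over 40 points, in 43.8% of the other tiles called lower and in 40.7% of all tiles. The same letters preceded by CTG with 8 bases between, the composite E-box and GATA motif, were in 4.56%, 1.24% and 1.09%. TGTGGTTT, of RUNX factors, was in 15%, 7.79% and 7.22%. The PU.1 motif, which extends the GGAA core of ETS factors on both sides, was in 2.75%, 0.942% and 0.824%. Other motifs differed less: CCACACCC of KLF factors was in 10.2% against 8.66% of all tiles, CCGGAAGT of ETS factors in 1.88% against 1.41%, and CAAAGTCC of HNF4 in 4.54% against 4.21%. Tiles called higher held AGATAA in 35.1%. A match is a count of letters and not a binding site. The windows shown above at Zfpm1, Runx1 and Apoe each hold AGATAA or its reverse complement, and the Kit window does not.

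Promoters were measured from 1 kb before to 1 kb after the gene start, for 19475 protein-coding genes with 5 or more covered CpGs. In mutant liver 4454 promoters were lower (22.9%) and 86 higher (0.442%), and the median promoter changed by -0.76 points. C3ar1, a complement receptor of myeloid cells, had 86.7% and 79.5% in the embryos and 17.5% and 15.6% in the livers. Runx1 had 87.4% and 85.5% against 21.4% and 21.4%. Pik3cg, a leukocyte kinase subunit, had 72.3% and 81.2% against 12.9% and 10.4%. The other promoters among the 8 largest falls were the uncharacterised 5730460C07Rik, Pf4 (platelet factor 4), Dock2 (leukocyte migration), Gpr56 and Fermt3 (the integrin activator of blood cells). Their falls ran from 63.4 points at Fermt3 to 66.6 at C3ar1, with edgeR adjusted p between 5.7e-20 at Runx1 and 1.3e-16 at C3ar1.

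In the 3 mutant E14.5 liver RNA libraries, levels were compared with the fall of the promoter, as a description with no test. Of 202 genes whose promoter fell by over 40 points 132 (65.3%) had 1 RPKM or more (counts scaled by gene length and library size), with a median of 2.39 (quartiles 0.48 and 10.2). Of 4243 genes with a smaller called fall 747 (17.6%) reached that level, and their median was 0. For all promoters 55.1% reached it, with a median of 1.83, and promoters under 10% in the embryos that were not called had a median of 6.13. Among the 8 promoters above, Pf4 had 342 ± 22.1 RPKM (SD, n = 3), Fermt3 84.6 ± 1.7 and Gpr56 49.9 ± 3.1, and Runx1, Pik3cg, Dock2, 5730460C07Rik and C3ar1 had between 0.77 and 3.62 on average. No RNA of the embryos was measured, so these are levels in liver and not changes.

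The lists of genes used below are marker genes of cell types. Erythroid genes had RNA at 1 RPKM or more for 38 of 39 genes in the mutant livers and hepatoblast genes for 40 of 43, while 2 of 27 neural genes did (Nes with 3.3 and Lhx2 with 3.6). The beta-globin gene Hbb-b1 had 21060, 21305 and 21518 RPKM in the 3 mutant livers, albumin (Alb) 15073, 17131 and 15031, and alpha-fetoprotein (Afp) 15220, 18178 and 15131. The libraries thus held RNA of both the blood and the hepatic lineage, as the label liver states. Rlf itself had 983, 1106 and 963 reads in the mutants and 918, 1094 and 982 in the wild types, so its RNA level does not check the genotype label of this allele. The Rlf promoter (93 CpGs) was at 3.0% and 2.9% in the mutant embryos and 2.2% and 1.6% in the mutant livers, and 1 of 12 tiles over the gene was called lower.

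Of 39 measured erythroid promoters 13 fell and none rose in edgeR's test (33.3%, against 22.9% of all promoters), with a list median of -2.98 points. Lmo2, a scaffold of red cell transcription factor complexes, had 72.9% and 80.4% in the embryos and 17.5% and 20.5% in the livers. Ermap, a red cell membrane protein, went from 69.3% and 74.0% to 18.1% and 13.96%, Tspo2 from 75.2% and 81.1% to 30.8% and 26.7%, and Hbb-b1 (6 CpGs) from 85.4% and 94.0% to 38.4% and 44.0%. The adult alpha-globin gene Hba-a1 went from 50.8% in both embryos to 18.3% and 20.7%. The 26 promoters that were not called were mostly unmethylated in the embryos already, 20 of 39 being under 10%, among them those of Tal1, Zfpm1 and Cpox.

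Over the erythroid gene bodies and 5 kb to either side, 62 of 960 tiles (6.46%) fell by over 40 points, against 1.48% of all tiles. Tiles called lower at any depth were fewer there, with 205 of 960 (21.4%, against 52.2% of all tiles). The tile at Zfpm1 was at 80.3% and 88.2% in the embryos and 11.8% and 12.2% in the livers. Slc25a38, a mitochondrial carrier needed for haem synthesis, had a tile in an intron that went from 86.5% and 86.0% to 18.51% and 17.1%. Alad, which makes porphobilinogen in the same pathway, had one that went from 84.7% and 89.5% to 23.2% and 21.6%. Hemgn, a nuclear protein of red cell precursors, had a tile at another annotated transcript start that went from 86.3% and 87.2% to 18.47% and 21.8%, while its whole promoter window stayed above 80% and was not called.

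Of the promoters of blood progenitor genes 9 of 19 fell (47.4%, against 22.9% of all promoters) and none rose, and 59 of 1015 tiles at these genes (5.81%, against 1.48% of all tiles) fell by over 40 points. Tiles called higher were also frequent at these genes, with 52 of 1015 (5.12%, against 1.08% of all tiles), among them 9 of 177 at Runx1, 8 of 20 at Gata2 and 8 of 170 at Mecom. Cbfa2t3 had a promoter level of 69.6% and 76.5% in the embryos and 13.9% and 13.01% in the livers. Vav1, a signalling protein of blood cells, fell from 76.5% and 78.9% to 25.8% and 29.5%, and Ptprc, which encodes CD45, from 88.1% and 87.3% to 39.6% and 38.4%. Ikzf1, the lymphoid factor Ikaros, had an intron tile that went from 83.5% and 86.9% to 14.9% and 14.2%. The list median of the promoters was -1.67 points, and 8 of the 19 were under 10% in the embryos.

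Among macrophage and neutrophil genes 21 of 24 promoters fell (87.5%, against 22.9% of all promoters) and none rose, with a median of -21.7 points. The median of the list in the embryos was 82.2%, so most of these promoters had methylation to lose. Among all promoters 10390 were under 10% in the embryos and not called, so the shares do not compare like with like. Mpo, the neutrophil myeloperoxidase, went from 91.8% and 91.4% to 45.0% and 35.7% (8 CpGs), and the Fc receptor gene Fcgr1 from 81.0% and 85.2% to 34.2% and 35.3%. Mrc1, the mannose receptor of macrophages, fell by 39.5 points and Ltf, lactoferrin, by 39.2. Of 247 tiles at these genes, 12 (4.86%, against 1.48% of all tiles) fell by over 40 points.

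Endothelial genes showed 13 of 18 promoters lower (72.2%, against 22.9% of all promoters) and none higher, and the list median was -29.9 points from an embryo median of 76.9%. Here too the 2 shares do not compare like with like, because 10390 of all promoters were under 10% in the embryos and not called. Pecam1, the adhesion molecule CD31, had 89.8% and 91.6% in the embryos and 33.4% and 34.5% in the livers. Tek, the angiopoietin receptor, went from 69.6% and 76.3% to 20.8% and 20%, and Plvap from 77.6% and 81.4% to 26.3% and 29.0%. Cdh5, the endothelial cadherin, went from 82.2% and 84.4% to 45.0% and 40.6%. At these genes 27 of 486 tiles (5.56%, against 1.48% of all tiles) fell by over 40 points.

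Of 43 measured hepatoblast promoters 26 fell (60.5%, against 22.9% of all promoters) and none rose. The list started at a median of 78.3%, while 10390 of all promoters were under 10% in the embryos and not called, so the shares do not compare like with like. The median was -19.0 points and 6 of 679 tiles at these genes (0.884%, against 1.48% of all tiles) fell by over 40 points, at or near Apoe, Trf, Afp, Hnf4a, Itih2 and Serpina6. The largest promoter fall of the list was at the transferrin gene Trf, which the annotation lists under 2 identifiers with overlapping promoters, both counted: the promoter of the expressed identifier (315 RPKM) went from 78.0% and 78.2% to 26.7% and 25.3%. Serpina6, the cortisol-binding globulin, went from 82.9% and 81.5% to 51.1% and 49.0%, and F10, a clotting factor, from 80.04% and 81.9% to 49.5% and 51.7%. Alb went from 90.8% and 87.6% to 64.1% and 58.9%, and Afp from 87.3% and 90.5% to 64.5% and 65.5%. An intron tile of Afp stood lower, at 77.3% and 87.6% in the embryos and 23.4% and 31.9% in the livers.

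In the lists of other tissues, none of 27 neural and none of 25 mesenchymal promoters (24 genes, with Runx2 under 2 identifiers) was called in edgeR's test, with medians of 1.24 and 1.36 points, and 27 of 27 neural and 20 of 25 mesenchymal promoters were under 10% in the embryos, from where a fall of 15 points is not possible. At an unadjusted p under 0.05 the test passed 12258 of 19475 promoters, with no limit on the size of the change. Of 23 muscle and heart promoters 6 fell (26.1%, against 22.9% of all), by 15.6 to 23.7 points (Myl2, Myh6, Tnnt2 and Myh7 most). Of 19 germ cell promoters Piwil1 (-18.52 points) and Tex101 (-17.5) fell, with a list median of -11.2 points from high levels. Of 15 housekeeping promoters Rpl13a fell, from 38.6% and 35.5% to 11.1% and 11.2%. Of the tiles at the genes of each list, counted once, the share called lower was 15.5% for housekeeping, 20.4% for neural, 21.4% for erythroid, 43.3% for mesenchymal, 44.6% for blood progenitor, 45.9% for muscle and heart, 54.5% for endothelial, 58.5% for germ cell, 59.8% for hepatoblast and 61.5% for macrophage and neutrophil genes, against 52.2% of all tiles.

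**Figure D3:**
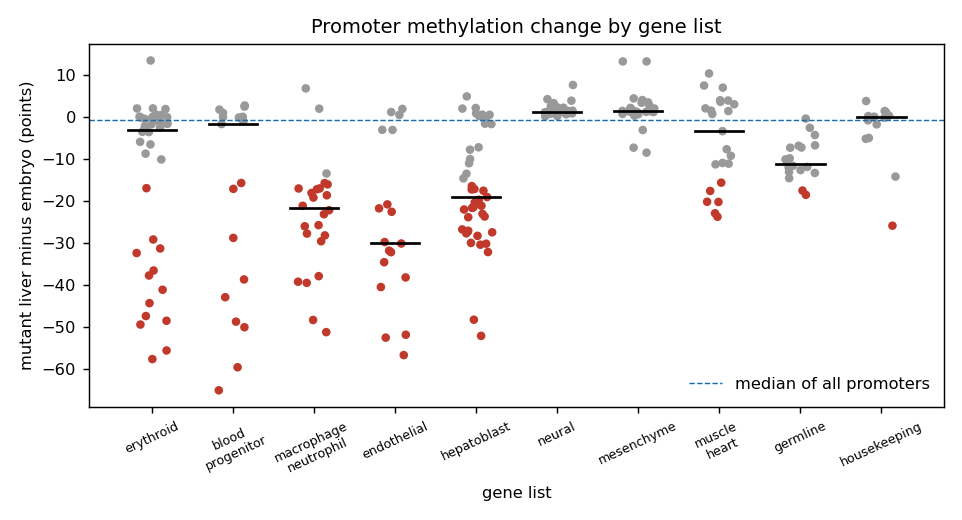
Change of promoter methylation in mutant liver against mutant embryo (points, vertical) for the genes of 10 lists. Each point is a gene (red where called lower, grey where not called), black bars are list medians, and the dashed line is the median of all promoters at -0.76 points. The endothelial and the macrophage and neutrophil lists have the lowest medians, -29.9 and -21.7, and the neural and mesenchymal lists lie close to the dashed line.

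Gain of methylation was rarer, and the regions of gain with the most tiles included homeobox genes. The 6934 higher tiles had a median of 34.7% in the embryos and 60.8% in the livers, and 5105 of their 5909 regions were a single tile. The region with the most called tiles, 7 at Hlx, a homeobox gene, went from 2.0% and 2.8% to 38.1% and 40.3%. Hoxd3 and Hoxd4 went from 7.7% and 7.6% to 26.8% and 27.6% over 6 tiles. Ahdc1 went from 20.8% and 18.9% to 58.2% and 59.3%, and Tnfaip2 from 22.4% and 21.99% to 58.0% and 62.8%. Cyp26c1 had 5 tiles that went from 11.1% and 13.8% to 64.7% and 66.2%. Of the 100 kb windows with the largest gains, 2 at Sox6 rose by 11.0 and 8.6 points and 1 over the Hoxb genes by 7.2 points.

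The largest promoter gain was also at Cyp26c1, with 6.9% and 6.2% in the embryos and 74.1% and 74.3% in the livers (53 CpGs, edgeR adjusted p = 2.8e-21). Its RNA was at 0, 0 and 0.040 RPKM in the mutant livers. Scx, a transcription factor of tendon, went from 8.7% and 7.2% to 65.8% and 59.6% with 0.29 RPKM. Next were 1700067K01Rik, 4933428G20Rik, Krtcap3 and Exoc3l2, with gains of 54.8, 50.2, 47.7 and 46.6 points. In the same order, their mean RNA in the mutant livers was 0.14, 0.21, 1.49 and 3.22 RPKM. Of the 86 genes with a gain at the promoter 30 (34.9%) had 1 RPKM or more, against 55.1% of all.

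The same tissue contrast was then measured in wild types, which share no library with the mutants, over the 600720 tiles covered in all 8 libraries. There 323908 tiles were lower in wild-type liver (53.9%) and 7693 higher (1.28%), and in mutants 308743 (51.4%) and 6664 (1.11%). The mean change was -14.7 points in mutants and -15.0 in wild types, 0.39 points apart. Mutant levels were slightly higher in both tissues: the embryos had 78.6% and 79.0% against 77.1% and 77.4%, and the livers 64.5% and 63.7% against 60.9% and 63.4%. The 2 changes had a correlation of 0.925 across tiles, which are not independent of each other, and the difference between them lay between -8.6 and 8.7 points between its lower and upper 2.5% of tiles.

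The deep losses of wild-type liver were found again in the mutants. Of 9401 tiles that fell by over 40 points in wild types (1.56% of tiles), 9401 were also called lower in mutants, against 51.4% of all tiles, with a median of -46.5 points in mutants and -47.1 in wild types. The smallest mutant fall among them was 16.8 points. In the other direction, of 9001 tiles with such a fall in mutants (1.5%), 9001 were called lower in wild types, and the smallest fall there was 19.6 points. Falls over 40 points in both genotypes covered 7387 tiles, 82.1% of the mutant and 78.6% of the wild-type set. Of tiles called higher, 5499 were shared, 82.5% of the mutant and 71.5% of the wild-type set.

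**Figure D4:**
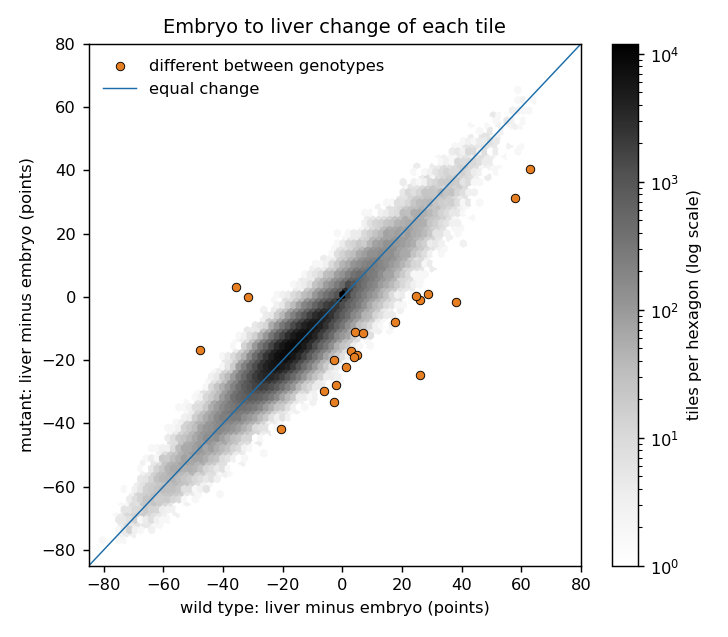
Change from embryo to liver (points) of 600720 tiles in wild types (horizontal) and mutants (vertical), with the number of tiles per hexagon on a log grey scale, the line of equal change and the 22 tiles with a different change in the 2 genotypes. The tiles lie along the line (r = 0.925), 3 of the 22 above it and 19 below.

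Named genes followed this pattern in single values. The Zfpm1 tile stood at 82.9% and 83.2% in wild-type embryos and 9.9% and 11.0% in wild-type livers, beside 80.3% and 88.2%, and 11.8% and 12.2%, in mutants. The Cbfa2t3 region went from 67.8% and 67.2% to 18.6% and 19.8% in wild types. The Cyp26c1 promoter went from 5.8% and 3.6% to 71.5% and 71.7%. Of the 4454 promoters lower in mutants 3992 were lower in wild types too, and of 86 higher ones 70, where 22.9% and 0.466% of all promoters were called in wild types. No promoter had a change that differed between genotypes in edgeR's interaction test (0 of 19327, with 1020 at an unadjusted p under 0.05), which does not show that the changes were alike.

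The test of the difference itself, edgeR's interaction of genotype and tissue, called 22 of 600720 tiles: 3 where the change was less negative in mutants (0.000499%) and 19 where it was more negative (0.00316%), of which 15 fell in mutants and 4 rose by less than in wild types. At an unadjusted p under 0.05 it passed 32761 tiles (5.45%), and the changes lay over 15 points apart in 1912. In simulated tiles without a difference 4.88% passed at that unadjusted p. Those tiles had the same level in all libraries and a fixed spread, unlike the real tiles. The shares therefore do not decide how many real tiles differ. The call recovered 16% of simulated differences of 20 points, 56% of 30 and 92% of 40. These were placed only in tiles of fairly high methylation, so recovery at other levels was not tested. Tiles that were not called are thus not shown to be alike. limma, run on log2 ratios of the real counts, called 0 and 1 tiles at the limits of the call. The counts also moved with single libraries: leaving out each in turn gave 2 to 13 tiles with a less negative and 5 to 83 with a more negative change in mutants, the highest without wild-type embryo replicate 1 and replicate 2 respectively.

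The 3 tiles where less methylation was lost in mutants lay at 2 places. On chromosome 13 (98233001 to 98234000, between genes, 210007 bp from Enc1; 13 CpGs) wild types went from 88.1% and 86.9% to 36.8% and 42.5%, and mutants from 84.3% and 84.1% to 67.3% and 67.6%. The changes differed by 31.1 points (edgeR adjusted p = 0.0021, and 0.081 without wild-type liver replicate 1), and the fall in mutants was itself called. Over 2 neighbouring tiles in exons of Cdh15, which encodes muscle cadherin (chromosome 8, 125388001 to 125390000), wild types fell and mutants did not. In the first of them wild types had 82.0% and 83.8% in embryos and 48.1% and 46.6% in livers, and mutants 63.9% and 73.9%, and 67.7% and 76.6%. There the difference was 38.9 points in the first tile and 31.7 in the second, and both tiles were called with any 1 of the 8 libraries left out. In the mutant E18.5 livers the first tile had 51.9% and 71.5% and the chromosome 13 tile 84.8% and 76.9%.

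The windows printed above show these 2 places. The 7 tested CpGs of the chromosome 13 window were at 18.3% and 24.1% in wild-type livers and 61.2% and 60.7% in mutant livers, with 85.2%, 86.1%, 78.7% and 82.9% in the wild-type and mutant embryos. The 11 tested CpGs of the Cdh15 window were at 56.0% and 34.9% in wild-type livers and 72.1% and 79.7% in mutant livers, and the embryos differed the other way, with 81.4% and 84.4% in wild types and 66.7% and 61.5% in mutants.

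The 19 tiles with a more negative change in mutants differed mainly at the embryo stage. In all 19 both mutant embryos were above both wild-type embryos, by a median of 26.3 points (11.8 to 42.2), and the livers differed by a median of 2.2 points (-12.8 to 16.2). The tiles were called from these same values, so this is a description. Over all tiles the mutant embryos were also higher, with means of 78.6% and 79.0% against 77.1% and 77.4%. The share of all tiles with both mutant embryos above both wild-type embryos was not counted. In 14 of them wild types gained methylation towards the liver. On chromosome 5 near Fzd9 wild-type embryos were at 21.5% and 30.7% and mutant embryos at 65.1% and 71.4%, with the 4 livers between 63.1% and 68.2%. In Hmga2, which encodes a chromatin protein of embryonic cells, wild-type embryos had 26.5% and 40.1% and mutants 52.3% and 63.5%, with livers from 58.1% to 64.3%. In Trfr2 (transferrin receptor 2), they had 26.9% and 40.4% against 67.3% and 58.7%. In an exon of Runx1 they had 14.51% and 18.01% against 48.7% and 41.3%, and all livers were between 71.4% and 79.7%, so this tile gained methylation in both genotypes. Near Scarb1 mutants fell from 72.5% and 70.6% to 38.8% and 38.1%, while wild types had 48.9%, 54.7%, 50.9% and 47.4%. On chromosome 3 (139784001 to 139785000) the livers of each genotype lay far apart, 44.9% and 72.9% in wild types and 37.0% and 55.3% in mutants.

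**Figure D5:**
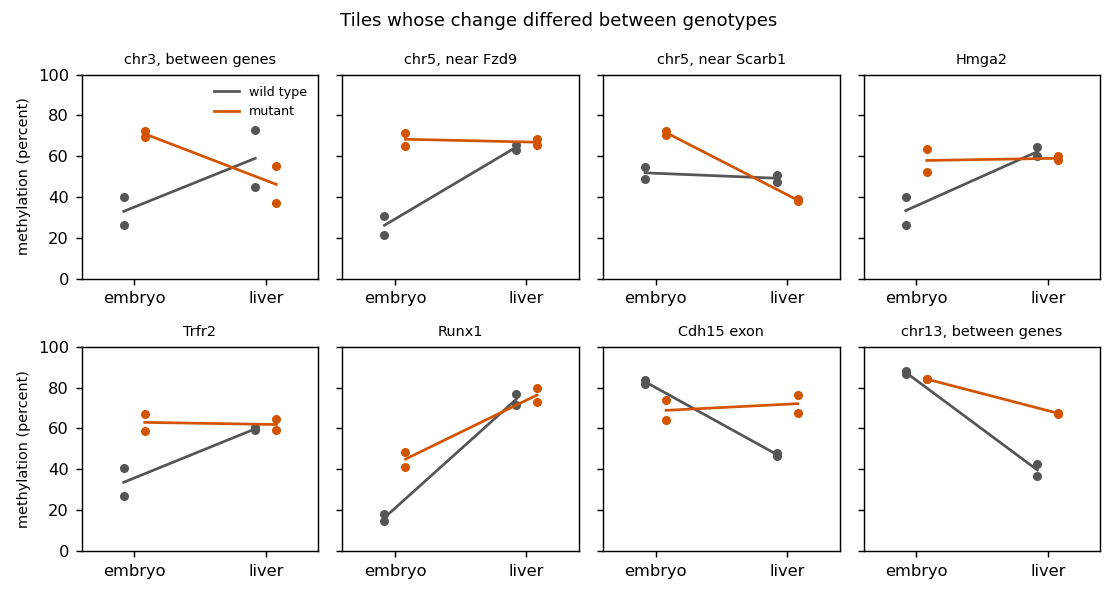
Methylation (percent, vertical) in embryo and liver at 8 tiles with a different change in the 2 genotypes. Each point is a library (orange mutant, grey wild type), and lines join group means of 2 libraries. In the panels from chromosome 3 to Runx1 the mutant embryos lie above the wild-type embryos, and in the Cdh15 and chromosome 13 panels the mutant livers lie above the wild-type livers.

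The 2 mutant E18.5 livers, which were not used in any call, were on the same side of the embryos in nearly all of these tiles. Of the 9491 deep tiles 9489 were below both mutant embryos in both E18.5 livers, against 78.7% of all tiles, with means of 44.1% and 39.9% beside 81.8% in the embryos and 32.6% in the E14.5 livers. Of the 6934 higher tiles 6869 stayed above both embryos, against 6.21% of all tiles, with means of 61.6% and 58.9%. The embryos are those of the call itself. Over all tiles the E18.5 livers had 71.1% and 67.5%, above the E14.5 livers. At Cbfa2t3 they had 34.2% and 26.5%, and at Kit 36.9% and 32.7%.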

How the data were processed

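The deposited files give, per CpG, counts of unconverted and converted cytosines and the percent methylated, made by the authors from 100 bp paired-end reads mapped with Bismark and Bowtie2 to mm9 carrying FVB substitutions, with PCR duplicates removed and strands merged. The counts were used as deposited, and the percent was recomputed from them. RNA counts per gene were deposited by the authors (TopHat, HTSeq without strand). In the spike-in lambda DNA at most 0.078% of cytosines stayed unconverted.

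Counts were summed in 1 kb tiles (at least 8 CpGs with 6 or more reads) and promoter windows, and tested with edgeR 4.0.16 (quasi-likelihood, 1 intercept per library, common dispersion, Benjamini-Hochberg adjustment) in R 4.3.3. A call needed an adjusted p below 0.05 and group means over 15 points apart. The script was tested on simulated data. The E14.5 livers were littermates, and nothing in the labels says that the 2 embryos of a group are from separate litters. The p-values measure no spread other than that between the 2 samples of a group. That spread was largely pooled over all tiles or promoters (prior degrees of freedom 43.8 for tiles and 34.8 for promoters). A small p therefore does not rest on the spread at its own tile or promoter alone. Between the replicates of a group 12.2% to 23.1% of tiles differed at a chi-square p under 0.05. That test takes each count at a CpG as independent, although a read can cover several CpGs. It therefore cannot tell replicate differences from the sampling of reads. Depth was 17.2 to 36.1 reads per covered autosomal CpG in the 8 embryo and E14.5 liver libraries. RNA levels (RPKM) are counts scaled by gene length and TMM library size, and IDs matched the annotation (GENCODE, same build) for 37205 of 37991. Gene starts come from that annotation. Genes named are the 6 regions with the most called tiles in each direction, the 8 largest falls and 6 largest gains among promoters with at least 8 CpGs and groups that do not overlap, up to 6 interaction tiles in each direction, and up to 4 called members of each list with the largest change; the deep regions, deepest tiles at listed genes and other genes were chosen after their values were seen, as were the 40-point limit, the motifs and the centred count. One region that this rule names is not reported here. The members and lists were chosen with earlier results of these data known. Limma 3.58.1, other filters, thinned livers and leave-one-out fits were tried as alternatives. Chromosomes X and Y were left out, and wild-type E18.5 livers and H3K4me1 were not analysed here.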

Additional observations from a re-analysis of the deposited data

Results flagged for a closer look

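The change from embryo to liver differed between genotypes at 19 tiles with a more negative and 3 tiles with a less negative change in mutants (interaction test of edgeR). The change in mutants minus that in wild types was -50.7 points on chromosome 3 (nearest gene B930007M17Rik), -39.7 near Fzd9, -30.4 near Scarb1, -27.8 in Hmga2, -27.2 in Trfr2 and -26.5 in Runx1, and 38.9 points in Cdh15 and 31.1 on chromosome 13 nearest Enc1. The tiles in Hmga2, Trfr2 and Runx1 were called in 2, 3 and 4 of the 8 fits that left out 1 library, those near Fzd9 and Scarb1 and in Cdh15 in 8, and those on chromosomes 3 and 13 in 7. None of these tiles was called by limma, with adjusted p of 0.46 near Fzd9 and in Cdh15, 0.61 on chromosome 13, 0.81 near Scarb1 and 0.95 for the others; the tile that limma called was another of the 19, at the start of Tmem69 (6.8% and 16.9% in mutant embryos, 0 in both wild-type embryos, and 0.52% to 5.9% in the livers).

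The GFP transgene, which was mapped as a separate sequence and is not among the tiles, was more methylated in mutants. Over its 204 CpGs the mutant embryos had 20.7% and 22.6% and the wild-type embryos 7.4% and 9.7% (13.1 points higher in mutants). The mutant livers had 24.1% and 25.4% against 12.5% and 12.3% (12.3 points). The paper reports such a gain in E14.5 liver, and its screen found the mutant lines by altered expression of this transgene. This difference was not tested.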

How the results depend on the processing

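Of 96 alternative values 69 stayed within 1.5 times the main count (or within 0.42 points, the replicate SD, for the mean) and 27 did not. Only the mean difference could reverse its sign, and it did so in no alternative. A count cannot reverse. Some settings also changed the number tested, which was 641694 tiles and 19475 promoters in the main fits. Tiles lower numbered 645268 with 5 CpGs per tile (1081485 tested), 76786 above 25 points and 26606 when centred on the median change. Tiles higher numbered 3169 with 2 kb tiles (651827 tested), 2557 above 25 points and 49856 when centred. Promoters lower numbered 1513 above 25 points, and promoters higher 27 above 25 points and 147 with windows of 500 bp to either side (18150 tested). The mean difference was -14.1 points with 10 reads, -16.7 with 5 CpGs and -16.8 with 2 kb tiles. Tiles with a less negative change in mutants than in wild types numbered 0 with limma and 7 with the replicate block; those with a more negative change 8 above 25 points and 1 with limma.

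Leaving out 1 library gave 319226 to 342975 tiles lower, 6736 to 7827 higher, 9416 to 10089 lower by over 40 points, 4284 to 4548 promoters lower and 82 to 100 higher, a mean difference of -15.2 to -14.4, and 9399 to 9401 of the wild-type deep falls called lower in mutants. For the interaction it gave 2 to 13 tiles with a less negative and 5 to 83 with a more negative change. The first count moved by over 1.5 times without either mutant embryo (7 and 9), mutant liver replicate 2 (7) or either wild-type embryo (13 and 8); the second without mutant embryo replicate 2 (38), either mutant liver (11 and 6), wild-type embryo replicate 2 (83) or either wild-type liver (5 and 6). The cause was not tested.

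Same-numbered embryos and livers of a genotype did not deviate together (r = 0.00084 in mutants and -0.0082 in wild types), so they were not taken as pairs. In the E14.5 livers of both genotypes the number goes with the labelled sex. Mutant and wild-type livers of the same number were not compared in this way. With the replicate block 334778 tiles were lower and 6935 higher, 4452 promoters lower and 86 higher, and 23 tiles had a more negative change in mutants. The livers were read at higher depth than the embryos. Thinned to the embryo depth they gave 320522 tiles lower and 6879 higher, of 622089 tested.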
